A study of Mus musculus with 6 samples.

Results

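Messenger RNA of 36 genes that make, control or export cholesterol and fatty acids was examined in bone marrow cells positive for CD11b, from mice labelled as lacking the thyrotropin receptor gene Tshr and from wild-type mice. The genes were taken by symbol from a table of 54532 genes, and each symbol was found. They comprise 15 enzymes of sterol synthesis, 6 regulators of the SREBP pathway and of sterol transport, 10 enzymes of fatty acid synthesis, the 2 LXR receptors and 3 LXR target genes. The sterol and fatty acid enzymes with Insig1 and Stard4, 27 genes in all, are called SREBP targets here. Of the 36 genes, 30 passed the filter on low values (1 FPKM or more in 3 or more libraries) and were tested. FPKM are fragment counts scaled to gene length and to a library size, which allows levels of genes to be set side by side. The size behind the FPKM was 0.939 to 1.12 times the fragments counted in a library. FPKM totals ran from 348454 to 451384, so comparisons between libraries depend on the scaling.

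There were 3 libraries labelled Tshr-/- and 3 labelled Tshr+/+, with titles that number the mice in each group, all aged 12 weeks. The titles do not say whether a library comes from a single mouse or a pool. Cells from the tibias were enriched with a kit that selects CD11b, an integrin chain on neutrophils, monocytes, macrophages and osteoclast precursors. The titles give the mutants as Tshr-/-, whereas a genotype label calls them a knockdown. Neither the allele nor the strain is given in the labels. A treatment label reads osteoclast differentiation for both groups, yet the protocols describe no culture and the time label is none.

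Cells regulate sterol supply through SREBP transcription factors, which are made as membrane proteins. SCAP escorts them from the endoplasmic reticulum for cleavage when sterol is scarce, INSIG proteins hold SCAP back when sterol is plentiful, and the released fragment switches on genes of sterol and fatty acid synthesis. SREBP-2, from Srebf2, acts mainly on sterol genes and SREBP-1, from Srebf1, mainly on fatty acid genes. LXR receptors work in the opposite situation: oxysterols activate them, and they switch on cholesterol exporters, Mylip and also Srebf1. Macrophages take up much cholesterol from dead cells and rely on LXR export. AMPK, the kinase named in the study's title, is known to restrain acetyl-CoA carboxylase and SREBP.

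Promoter sequence from RefSeq (build GRCm38.p6) was matched for 28 of the 36 genes and is shown for 5 of them, because the control of these genes by SREBP and LXR is the reason to set them side by side. Each line below gives the 250 bases before the start of transcription, 5′ to 3′ on the strand of the gene. Capitals mark the letters of 3 motifs found on either strand. They are a sterol regulatory element (SRE, TCACNCCAC), the box bound by NF-Y (CCAAT) and a direct repeat to which LXR binds (direct repeat 4, GGTNANNNNNGGTNA). NF-Y is a factor that works together with SREBP. Full copies of the repeat lie 4 bases apart. The search left out the first base of each copy, so 5 free bases separate the letters GGTNA. Hmgcs1 and Mvk are enzymes of the mevalonate pathway, Fasn is the fatty acid synthase, Srebf1 encodes SREBP-1 and Abca1 is a cholesterol exporter.
Hmgcs1, chr13:119690101-119690350, plus strand: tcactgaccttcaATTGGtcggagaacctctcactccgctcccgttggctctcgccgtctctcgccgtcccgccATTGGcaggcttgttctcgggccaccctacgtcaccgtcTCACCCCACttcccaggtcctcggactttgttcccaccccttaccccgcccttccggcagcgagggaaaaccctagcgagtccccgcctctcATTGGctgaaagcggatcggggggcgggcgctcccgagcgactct
Mvk, chr5:114444019-114444268, plus strand: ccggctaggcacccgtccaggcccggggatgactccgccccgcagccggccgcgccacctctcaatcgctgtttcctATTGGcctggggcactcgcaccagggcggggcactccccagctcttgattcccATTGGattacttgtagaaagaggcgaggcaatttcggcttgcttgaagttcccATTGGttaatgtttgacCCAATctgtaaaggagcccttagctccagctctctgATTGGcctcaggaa
Fasn, chr11:120824548-120824797, minus strand: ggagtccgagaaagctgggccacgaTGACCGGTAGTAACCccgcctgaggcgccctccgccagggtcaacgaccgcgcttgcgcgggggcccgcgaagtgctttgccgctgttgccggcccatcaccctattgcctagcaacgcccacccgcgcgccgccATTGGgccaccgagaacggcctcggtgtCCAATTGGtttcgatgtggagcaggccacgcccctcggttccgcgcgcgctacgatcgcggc
Srebf1, a start inside the gene, chr11:60210472-60210721, minus strand: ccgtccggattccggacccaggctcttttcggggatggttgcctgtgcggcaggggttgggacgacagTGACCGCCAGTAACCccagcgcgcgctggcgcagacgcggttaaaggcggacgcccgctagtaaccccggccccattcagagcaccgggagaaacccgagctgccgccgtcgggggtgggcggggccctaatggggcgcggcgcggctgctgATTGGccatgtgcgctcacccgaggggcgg
Abca1, chr4:53159896-53160145, minus strand: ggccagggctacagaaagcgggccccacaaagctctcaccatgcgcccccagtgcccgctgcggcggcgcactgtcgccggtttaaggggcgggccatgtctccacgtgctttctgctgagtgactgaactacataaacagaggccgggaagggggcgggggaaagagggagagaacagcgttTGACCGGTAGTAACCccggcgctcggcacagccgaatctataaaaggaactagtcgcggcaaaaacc

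The NF-Y box stood in these windows for 12 of 12 sterol synthesis enzymes with a RefSeq window, against 37.5% of 27025 genes with a window. It was found for 3 of 7 fatty acid enzymes (Fasn, Elovl5 and Acss2), for 4 of 5 regulators and for Mylip of the 2 LXR targets with a window. Every matched window is 1 annotated start, and a gene was counted if any of its starts held the letters. Mvk held the box 5 times. In Fasn, 2 of its matches overlap each other. The SRE letters were found for Hmgcs1 alone among the 28 genes, 137 to 129 bases before its start, and for 1.225% of all genes. The direct repeat 4 letters were found for 3 of the 28 genes and for 0.707% of all genes. They lay 67 to 53 bases before the start of Abca1, 225 to 211 bases before that of Fasn, and 182 to 168 bases before the internal start of Srebf1. Matches describe letters in the window and do not show that a factor binds there. Windows were not matched for Fdps, Abcg1, Fads1, Scd1, Fdft1, Stard4, Sqle and Scd2.

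**Figure D1:**
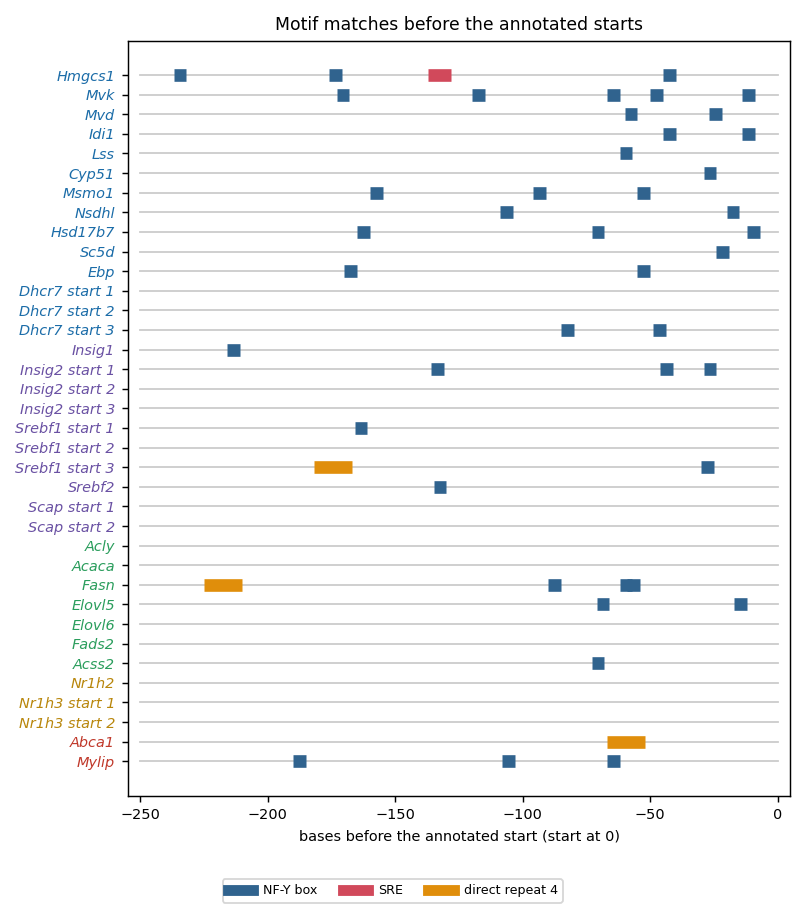
Matches of the SRE, the NF-Y box and the direct repeat 4 in the 250 bases before each start of the genes with a RefSeq window. The x axis is the distance from the start in bases, each row is 1 annotated start and each bar 1 match on either strand. The sterol synthesis enzymes at the top all carry an NF-Y box, Dhcr7 at 1 of its 3 starts, and the direct repeat 4 is seen in Srebf1, Fasn and Abca1.

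The libraries held 14698126 to 17976477 fragments. Tshr was present at 0.414, 0.297 and 0.00825 FPKM (40, 25 and 1 fragments) in the libraries labelled Tshr-/- 1, 2 and 3, and at 0.537, 0.552 and 0.405 FPKM in those labelled Tshr+/+ 1, 2 and 3 (55, 55 and 45 fragments). The libraries labelled Tshr-/- 1 and 2 thus held fragments of the targeted gene, and Tshr-/- 1 lay above the lowest Tshr+/+ library. The group means did not separate (exact two-sided permutation p = 0.2, with 0.1 the smallest p that 3 against 3 allows). Where in the gene these fragments lie was not analysed here. Every result below is therefore one of libraries by their labels. The selection genes Itgam, Itgb2 and Ptprc were above 0 in all 6 libraries, and markers of neutrophils were the most abundant of the cell markers. In such bulk samples, fewer cells of a type and less RNA per cell cannot be told apart.

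No gene of either lipid pathway passed the test between genotypes. limma called 0 of the 30 tested members and 0.0% of all 10913 tested genes at an adjusted p under 0.05, and each of the 30 had an adjusted p of 0.9997. Without adjustment, limma gave p under 0.05 for 1 of the 30 members (Srebf1) and for 2.9% of all tested genes (1.43% higher and 1.48% lower in Tshr-/-). limma's voom on whole fragments also called 0 members and 0 genes. Over the 30 members the 95% intervals of the log2 fold change stayed between -1.11, the lower end for Mylip, and 0.80, the upper end for Insig2. The groups did not overlap for 2 of the 30 tested members, against 6.77% of all tested genes. Both were lower in Tshr-/- (Srebf1 and Scap), against 3.55% of all genes in that direction, and 0 members were higher without overlap, against 3.23%.

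The median log2 fold change of the 30 tested members, Tshr-/- over Tshr+/+, was -0.05, beside -0.01 for all genes tested. Of the 30, 6 had a higher mean and 24 a lower mean in Tshr-/-, against 52.9% of all genes with a lower mean. That split was sensitive to 1 of the 2 other scalings tried. With libraries rescaled to equal FPKM totals, 15 had a higher and 15 a lower mean, and with quantile normalization 7 had a higher and 23 a lower mean. With equal totals the median of all genes moved to 0.03. The members spanned a wide range of levels. The highest mean over all libraries was 118 FPKM for Nr1h2 and the lowest 0.0899 FPKM for Fdps. The Fdps level may depend on how fragments shared with an overlapping gene, described below, were counted.

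**Figure D2:**
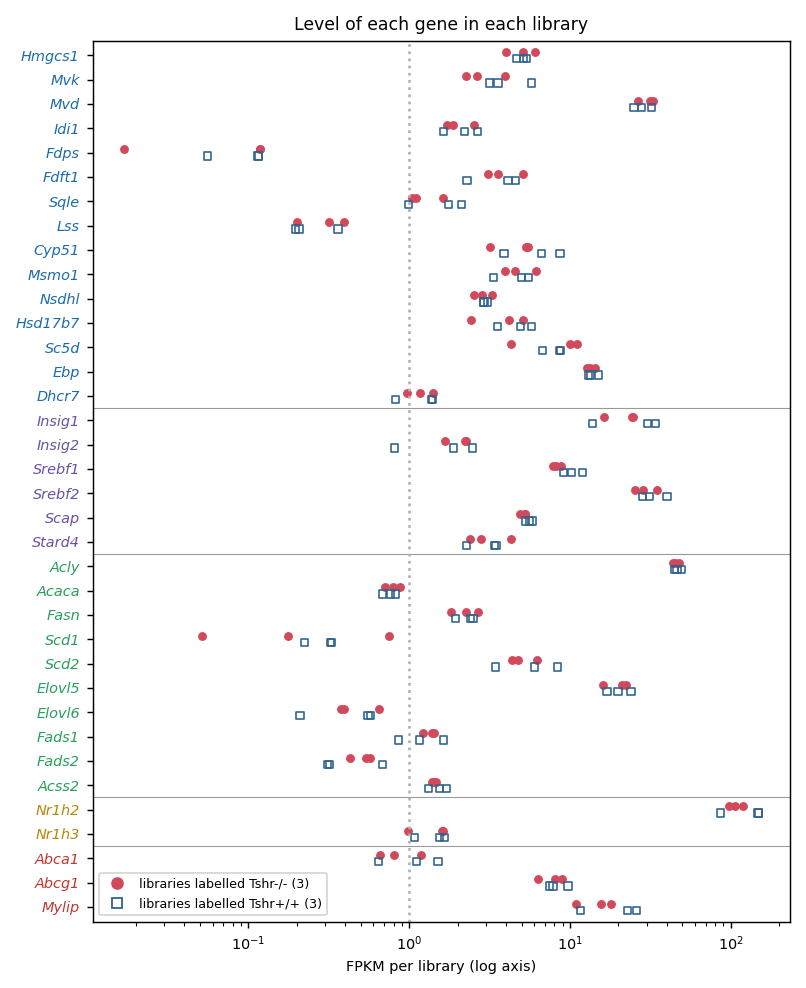
FPKM of each of the 36 genes in each library, on a log axis, grouped by role from sterol enzymes at the top to LXR targets at the bottom. Filled circles are the 3 libraries labelled Tshr-/-, open squares the 3 labelled Tshr+/+, and the dotted line marks 1 FPKM. The groups overlap for every gene but Srebf1 and Scap.

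The sterol synthesis enzymes were expressed at low to moderate levels, and Mvd and Ebp stood above the rest. Of the 13 tested, 3 had a higher and 10 a lower mean in Tshr-/-, and their median log2 fold change was -0.03. Mvk, mevalonate kinase (ENSMUSG00000041939, GRCm38 chromosome 5, 114444269 to 114460591), had 2.65, 3.92 and 2.26 FPKM in Tshr-/- and 3.58, 5.75 and 3.17 FPKM in Tshr+/+. The highest Tshr-/- library lay above 2 of the Tshr+/+ libraries, so the groups overlapped. Each Tshr-/- library lay below the Tshr+/+ library of the same number, but the labels do not match numbers across groups. It averaged 2.94 ± 0.866 FPKM over Tshr-/- and 4.17 ± 1.39 FPKM over Tshr+/+ libraries (mean ± SD of 3 libraries), with a log2 fold change of -0.38 ± 0.23 (SE; 95% interval -0.93 to 0.17). Among the sterol enzymes its p from limma was the smallest.

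Mvd, mevalonate diphosphate decarboxylase, was the most abundant of these enzymes. It had 26.3, 33.0 and 31.6 FPKM in Tshr-/- and 25.04, 27.8 and 32.0 FPKM in Tshr+/+. The groups covered nearly the same range, and the log2 fold change was 0.10 ± 0.14 (SE; 95% interval -0.23 to 0.42). Hmgcs1, which makes HMG-CoA at the head of the pathway and holds the SRE shown above, had 4.03, 6.10 and 5.11 FPKM in Tshr-/- and 4.68, 5.16 and 5.37 FPKM in Tshr+/+. Its means differed by -0.01 ± 0.15 on the log2 scale (SE; 95% interval -0.36 to 0.34), and the Tshr-/- libraries held both the lowest and the highest value.

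Several enzymes after mevalonate varied widely within each genotype. Cyp51, the lanosterol demethylase, which is named here after its values were seen, had 5.32, 5.51 and 3.18 FPKM in Tshr-/- and 6.65, 8.68 and 3.89 FPKM in Tshr+/+. The library numbered 3 was the lowest of each group. The log2 fold change was -0.36 ± 0.29 (SE; 95% interval -1.04 to 0.32). Sc5d, lathosterol oxidase, also chosen after its values were seen, had 10.02, 10.99 and 4.29 FPKM in Tshr-/- and 8.64, 8.71 and 6.74 FPKM in Tshr+/+. Both the highest and the lowest values were Tshr-/- libraries, and the log2 fold change was -0.02 ± 0.31. Ebp, the sterol isomerase, varied little, between 12.8 and 14.3 FPKM in Tshr-/- and between 13.01 and 15.0 FPKM in Tshr+/+.

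The remaining tested sterol enzymes had log2 fold changes between -0.25 (Hsd17b7) and 0.09 (Fdft1). They were Idi1, the isomerase of isoprene units, Fdft1 and Sqle, which make squalene and oxidise it, Msmo1, Nsdhl and Hsd17b7, which strip methyl groups from lanosterol, and Dhcr7, which performs a final reduction. Fdps and Lss were below the filter. Lss, the cyclase that makes lanosterol, had 0.202 to 0.391 FPKM in Tshr-/- and 0.196 to 0.361 FPKM in Tshr+/+. Fdps, farnesyl diphosphate synthase, had 8, 1 and 10 fragments in Tshr-/- and 4, 8 and 9 in Tshr+/+. The annotated exons of Fdps share 85.9% of their coding bases with Gm43738 on the same strand, so how the authors' counting treated shared fragments bears on that level and was not tested. Among the members, overlap on the opposite strand was largest for Fdft1 (18.3% of exon bases, with Ctsb), Scap (13.2%) and Hmgcs1 (12.1%). The strand setting was not given, and its bearing on these levels was not tested.

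Among the regulators, Srebf1 was the member with the smallest p. Srebf1, which encodes SREBP-1 (ENSMUSG00000020538, GRCm38 chromosome 11, 60199089 to 60222581), had 8.23, 7.80 and 8.84 FPKM in Tshr-/- and 10.2, 11.9 and 9.14 FPKM in Tshr+/+. Every Tshr-/- library lay below every Tshr+/+ library, and the gap between the groups was 0.293 FPKM. The means were 8.29 ± 0.525 FPKM over Tshr-/- and 10.4 ± 1.42 FPKM over Tshr+/+ libraries (mean ± SD of 3 libraries). The log2 fold change was -0.29 ± 0.12 (SE) and limma's adjusted p 0.9997. Its adjusted p lay between 0.0860 and 1 over the alternative settings, so it was called in none.

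Srebf2, which encodes SREBP-2, was 2.86 to 4.45 times as abundant as Srebf1 in the 6 libraries. It had 28.5, 34.7 and 25.3 FPKM in Tshr-/- and 31.1, 40.2 and 28.2 FPKM in Tshr+/+. The groups overlapped. Each Tshr-/- library was below the Tshr+/+ library of the same number, an order that rests on a numbering not matched across groups by the labels. The log2 fold change was -0.16 ± 0.17 (SE; 95% interval -0.57 to 0.25). Scap, the escort of SREBP, had 5.29, 4.92 and 5.28 FPKM in Tshr-/- and 5.61, 5.81 and 5.29 FPKM in Tshr+/+. The groups did not overlap, but only 0.00149 FPKM separated the highest Tshr-/- from the lowest Tshr+/+ library, and the log2 fold change was -0.09 ± 0.10 (SE; 95% interval -0.33 to 0.14).

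Insig1, the anchor of SCAP that is itself an SREBP target (ENSMUSG00000045294, GRCm38 chromosome 5, 28071363 to 28078662), had 24.4, 24.5 and 16.2 FPKM in Tshr-/- and 30.2, 33.9 and 13.9 FPKM in Tshr+/+. The lowest and the highest values were both Tshr+/+ libraries. The means were 21.7 ± 4.78 FPKM over Tshr-/- and 26.0 ± 10.7 FPKM over Tshr+/+ libraries (mean ± SD of 3 libraries), and the log2 fold change was -0.18 ± 0.34 (SE; 95% interval -0.99 to 0.63). It was 0.01 without Tshr-/- 3, 0.05 without Tshr+/+ 2 and -0.56 without Tshr+/+ 3. Insig2, the second anchor, had 1.68, 2.26 and 2.23 FPKM in Tshr-/- and 0.811, 1.89 and 2.49 FPKM in Tshr+/+. Tshr+/+ again held both extremes, and the log2 fold change was 0.21 ± 0.25. Insig1 exceeded Insig2 by 14.5, 10.9 and 7.27 times in Tshr-/- and by 37.2, 17.9 and 5.57 times in Tshr+/+. Stard4, a carrier of cholesterol between membranes, had 2.39 to 4.27 FPKM in Tshr-/- and 2.28 to 3.47 FPKM in Tshr+/+.

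The fatty acid synthesis genes had very unequal levels, and 4 of the 10 were below the filter. Acly, which makes cytosolic acetyl-CoA from citrate, was the most abundant. It had 45.3, 43.8 and 47.6 FPKM in Tshr-/- and 46.3, 49.5 and 44.6 FPKM in Tshr+/+. The ranges overlapped, and the log2 fold change was -0.04 ± 0.10 (SE; 95% interval -0.27 to 0.20). That sign was turned by rescaling to equal FPKM totals and by quantile normalization. Acss2, which makes acetyl-CoA from acetate, had 1.40, 1.39 and 1.47 FPKM in Tshr-/- and 1.32, 1.54 and 1.70 FPKM in Tshr+/+. The Tshr-/- libraries lay inside the Tshr+/+ range, and the log2 fold change was -0.06 ± 0.12.

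Acaca, the acetyl-CoA carboxylase that AMPK phosphorylates, had 0.790, 0.710 and 0.872 FPKM in Tshr-/- and 0.681, 0.824 and 0.766 FPKM in Tshr+/+, under the filter in every library. Fasn, which builds palmitate, was somewhat higher at 2.66, 1.82 and 2.27 FPKM in Tshr-/- and 2.41, 2.498 and 1.94 FPKM in Tshr+/+. Its log2 fold change was -0.02 ± 0.15. The groups of both genes overlapped, and for Fasn the Tshr-/- libraries held both extremes. Phosphorylation of the carboxylase is not read by transcript levels.

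Paralogs among the desaturases and elongases had unequal levels. Scd2, a stearoyl-CoA desaturase, had 4.73, 4.39 and 6.21 FPKM in Tshr-/- and 3.44, 6.01 and 8.33 FPKM in Tshr+/+. Scd1, the paralog best known from liver and fat, had 4, 12 and 73 fragments in Tshr-/- and 27, 26 and 20 in Tshr+/+, or 0.0514, 0.177 and 0.749 FPKM and 0.328, 0.325 and 0.224 FPKM. Library Tshr-/- 3 was the highest of all 6 and Tshr-/- 1 the lowest. This gene is described after its values were seen, and fragments shared between the paralogs cannot be separated here.

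Elovl5, an elongase of polyunsaturated fatty acids, had 16.1 to 22.2 FPKM in Tshr-/- and 17.0 to 24.0 FPKM in Tshr+/+. Elovl6, the elongase of palmitate, was below the filter, with 0.377 to 0.648 FPKM in Tshr-/- and 0.210 to 0.573 FPKM in Tshr+/+. The ratio of Elovl5 to Elovl6 was between 30.6 and 114. Fads1, the delta-5 desaturase, had 1.38, 1.22 and 1.42 FPKM in Tshr-/- and 1.15, 0.856 and 1.64 FPKM in Tshr+/+. It was the only tested member of the fatty acid genes with a higher mean in Tshr-/-, with a log2 fold change of 0.09 ± 0.16 (SE; 95% interval -0.30 to 0.48). Tshr+/+ held both extremes. Fads2, the delta-6 desaturase, stayed under the filter at 0.428 to 0.568 FPKM in Tshr-/- and 0.311 to 0.681 FPKM in Tshr+/+.

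Of the LXR receptors, Nr1h2, the broadly expressed LXR-beta, was 55.5 to 137 times as abundant as Nr1h3, LXR-alpha. Nr1h2 (ENSMUSG00000060601, GRCm38 chromosome 7, 44549616 to 44553951) had 107, 119 and 97.6 FPKM in Tshr-/- and 149, 148 and 85.9 FPKM in Tshr+/+. The library numbered 3 was the lowest of each group and Tshr+/+ 3 the lowest of all. The log2 fold change was -0.20 ± 0.23 (SE; 95% interval -0.74 to 0.34). Nr1h3 had 0.989, 1.62 and 1.60 FPKM in Tshr-/- and 1.66, 1.08 and 1.55 FPKM in Tshr+/+, with overlapping groups and a log2 fold change of -0.02 ± 0.17.

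The 3 LXR targets all had a lower mean in Tshr-/-, with overlapping groups. Abca1, the exporter of cholesterol to lipid-poor apolipoprotein A-I (ENSMUSG00000015243, GRCm38 chromosome 4, 53030787 to 53159895), had 0.810, 0.661 and 1.19 FPKM in Tshr-/- and 1.51, 1.11 and 0.642 FPKM in Tshr+/+. Library 3 was the highest Tshr-/- and the lowest Tshr+/+ library. The means were 0.888 ± 0.274 FPKM over Tshr-/- and 1.09 ± 0.436 FPKM over Tshr+/+ libraries (mean ± SD of 3 libraries), and the log2 fold change was -0.13 ± 0.20 (SE; 95% interval -0.62 to 0.35).

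Abcg1, the exporter to mature HDL, had 6.31, 8.07 and 8.97 FPKM in Tshr-/- and 9.73, 7.44 and 7.86 FPKM in Tshr+/+. Its lowest value was Tshr-/- 1 and its highest Tshr+/+ 1, and the log2 fold change was -0.09 ± 0.16. Mylip, the ubiquitin ligase that sends the LDL receptor to degradation (ENSMUSG00000038175, GRCm38 chromosome 13, 45389742 to 45412022), had 15.7, 17.96 and 10.9 FPKM in Tshr-/- and 25.9, 22.7 and 11.7 FPKM in Tshr+/+. The library numbered 3 was the lowest of each group, and Tshr+/+ 3 alone lay in the range of the Tshr-/- libraries. The log2 fold change was -0.37 ± 0.31 (SE; 95% interval -1.11 to 0.37). The sign turned for Abca1 without Tshr+/+ 1, to 0.01, and for Abcg1 without Tshr-/- 1, to 0.03, or without Tshr+/+ 1, to 0.01.

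**Figure D3:**
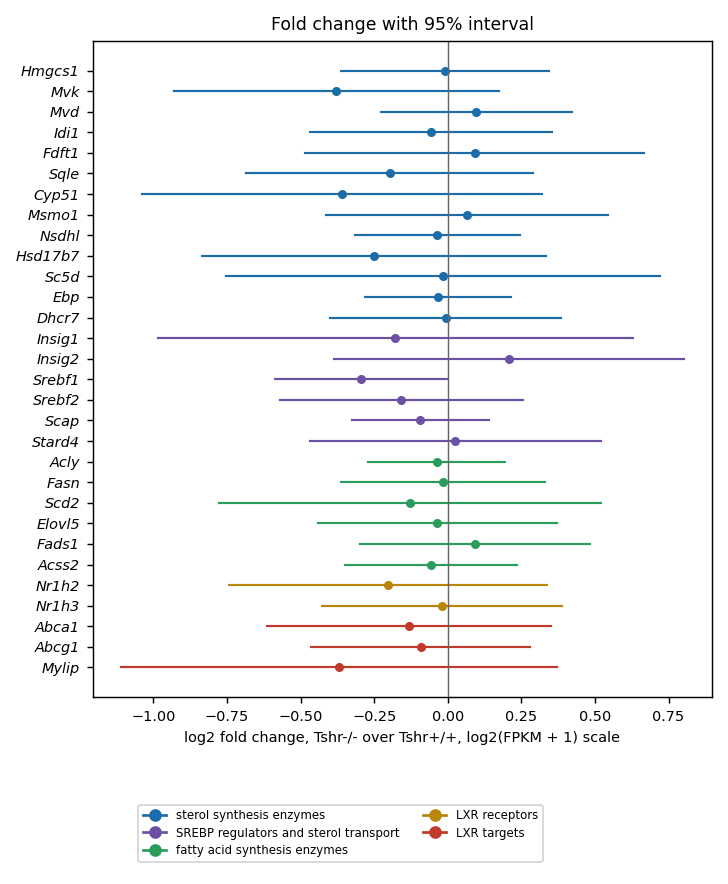
Log2 fold change of each tested gene on the log2(FPKM + 1) scale, Tshr-/- over Tshr+/+, by role, with the 95% interval from limma. The vertical line at 0 marks equal means, and every interval but that of Srebf1 crosses it. No gene passed after adjustment over all 10913 genes.

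SREBP targets and LXR targets were set side by side because the 2 pathways answer opposite sterol states. The lists are not fully separate in control, since LXR also switches on Srebf1, whose product acts mainly on fatty acid genes. Fasn, counted among the SREBP targets, held the direct repeat 4 letters. The median log2 fold change was -0.04 for the 21 tested SREBP targets, of which 5 had a higher and 16 a lower mean in Tshr-/-. It was -0.13 for the 3 LXR targets, and -0.01 for all genes tested. With equal FPKM totals these medians were 0.01, -0.09 and 0.03. The LXR median was the value of Abca1, which averaged 0.987 FPKM. With a pseudocount of 0.1 the median was -0.04 for the SREBP targets and -0.23 for the LXR targets. It was -0.04 and -0.205 with voom, and -0.02 and -0.20 with quantile normalization. The order of the 2 lists turned without Tshr+/+ 1, when the median was -0.11 for the SREBP targets and 0.01 for the LXR targets. With 1 library left out, the median of the LXR targets ranged between -0.30 and 0.01. The difference between the medians was not tested. Against the mean of Tshr+/+ on the log2 scale, the median deviation of the LXR targets was -0.27, -0.08 and 0.09 in Tshr-/- 1, 2 and 3 and 0.29, 0.04 and -0.32 in Tshr+/+ 1, 2 and 3. The Tshr+/+ libraries thus spanned the whole range of the Tshr-/- libraries. For the 27 SREBP targets the medians were -0.05, -0.01 and -0.0026 in Tshr-/- and -0.08, 0.08 and 0.09 in Tshr+/+. Within Tshr+/+ the medians of the LXR targets were spread more widely than those of the SREBP targets. A median of 3 genes varies more than a median of 27, so the 2 spreads cannot be compared.

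**Figure D4:**
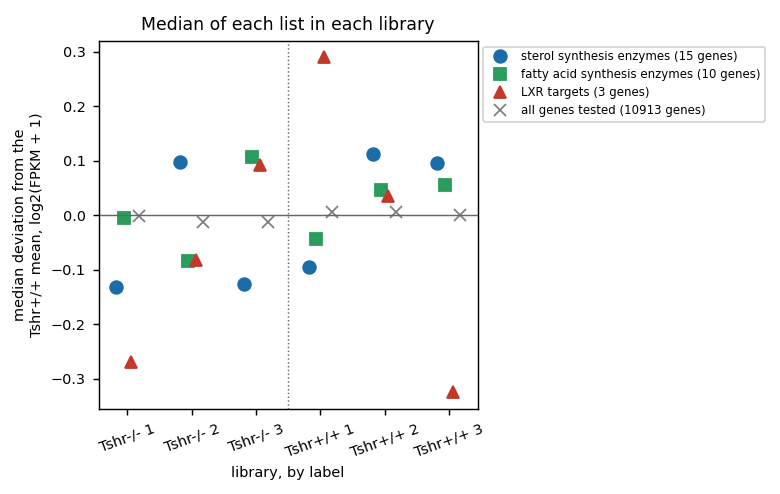
Median deviation from the Tshr+/+ mean, on the log2(FPKM + 1) scale, of the sterol enzymes, the fatty acid enzymes, the LXR targets and all genes tested in each library, with Tshr-/- libraries left of Tshr+/+ libraries. For the LXR targets Tshr+/+ 1 is the highest and Tshr+/+ 3 the lowest library. The medians over all genes tested lie between -0.01 and 0.01.

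Within Tshr-/-, the sterol enzymes and the fatty acid enzymes differed in their order of libraries. Library Tshr-/- 2 was the highest of its group for 11 of the 13 tested sterol enzymes, against 36.1% of all genes. The same library was the lowest of its group for 6 of the 6 tested fatty acid enzymes, against 35.9% of all genes. In Tshr+/+, library 1 was the lowest for 9 of the 13 sterol enzymes, against 30.6% of all genes, and it had the lowest median deviation in both lists. There the medians of libraries 1, 2 and 3 were -0.09, 0.11 and 0.09 for the sterol enzymes and -0.04, 0.05 and 0.06 for the fatty acid enzymes. These counts describe single libraries, and the enzymes share those libraries. Ranks of libraries, here and below, also depend on the scaling. FPKM totals were 429272, 451384 and 348454 in Tshr-/- 1, 2 and 3. In Tshr+/+ 1, 2 and 3 they were 422117, 450717 and 395049. Ranks under another scaling were not counted.

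Library Tshr-/- 2 also stood apart in cell markers. Its 7 osteoclast markers summed to 69.4 FPKM, against 12.7 and 16.2 FPKM in Tshr-/- 1 and 3 and 9.09 to 27.8 FPKM in Tshr+/+. Calcr, the calcitonin receptor gene and a marker of mature osteoclasts, was listed at 0 in every library but Tshr-/- 2, and so was under the filter. Of the 7 osteoclast markers 5 were under the filter, and the lowest mean over all libraries was 0.00912 FPKM. In Tshr-/- 2 the 8 markers of dividing cells summed to 241 FPKM, against 302 FPKM in both other Tshr-/- libraries and 278 to 284 FPKM in Tshr+/+. The part of these cells in the order of the enzymes was not tested.

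**Figure D5:**
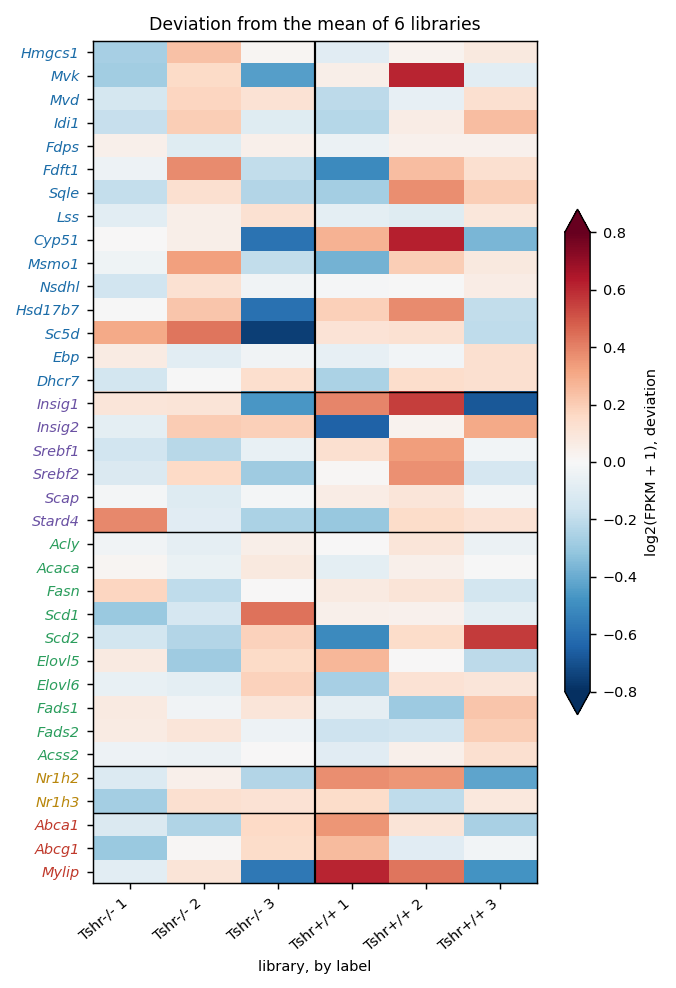
Deviation of each of the 36 genes in each library from its mean over all 6 libraries, on the log2(FPKM + 1) scale by colour (red above, blue below), with Tshr-/- libraries in the left columns and genes grouped by role. Sterol enzymes of Tshr-/- 2 lie mostly above those of Tshr-/- 1 and 3, and Insig1, Nr1h2 and Mylip are low in both libraries numbered 3.

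Libraries with the same number resembled each other for some members. In both groups library 2 was the highest for 9 of the 30 tested members, against 14.1% of all genes: Mvk, Fdft1, Sqle, Cyp51, Msmo1, Hsd17b7, Sc5d, Insig1 and Srebf2. Library 1 was the lowest in both groups for 6 of the 30, against 11.1% of all genes: Hmgcs1, Mvd, Idi1, Nsdhl, Dhcr7 and Insig2. Library 3 was the lowest in both for 8 of the 30, close to the 24.2% of all genes. Pairing by number is an assumption drawn from correlations in these data. Tshr-/- 1 correlated more with Tshr+/+ 2 (0.344) than with Tshr+/+ 1 (0.243). Within same-numbered libraries, 7 of the 30 were lower in Tshr-/- in all 3 pairs, against 14.5% of all genes, and 0 were higher in all 3, against 12.2%. The 7 were Mvk, Cyp51, Hsd17b7, Srebf1, Srebf2, Scap and Mylip. That count depends on the numbering. With numbers 1 and 2 exchanged, Mvk, Hsd17b7 and Srebf2 would leave it. They had 3.92, 5.07 and 34.7 FPKM in Tshr-/- 2, above 3.58, 4.94 and 31.1 FPKM in Tshr+/+ 1. The fit with the replicate number as a block called none of the 7.

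Insig1 had one of the wider spreads within a group: library 3 was 0.662 times the mean of libraries 1 and 2 in Tshr-/- and 0.433 times in Tshr+/+. Cell markers of library 3 did not move as one. The 7 neutrophil markers summed to 44581, 52017 and 31732 FPKM in Tshr-/- and to 44862, 51687 and 42436 FPKM in Tshr+/+, but library 3 was the lowest of both groups for only 3 of the 7. The 5 markers of neutrophil precursors summed to 2587, 1981 and 2504 FPKM in Tshr-/- and to 1877, 1830 and 2282 FPKM in Tshr+/+. The 6 monocyte markers summed to 646, 536 and 656 FPKM in Tshr-/- and to 511, 529 and 587 FPKM in Tshr+/+, with library 3 the highest of both groups for 5 of the 6, all but Ly6c2. The part of these cells in the members' values was not tested.

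Without both libraries numbered 3, an alternative chosen after the data were seen, limma called 0 of the 30 members and 24 of all 10913 genes (0.22%; 13 higher and 11 lower in Tshr-/-). The log2 fold changes were then -0.51 for Mylip, -0.41 for Abca1, -0.40 for Nr1h2, -0.37 for Insig1 and -0.42 for Srebf1. They were -0.39 for Mvk, -0.22 for Abcg1, -0.16 for Srebf2, -0.14 for Scap and -0.10 for Acly. Those of Nr1h3 and Acss2 were -0.04 and -0.02. In the other direction they were 0.37 for Insig2, 0.20 for Fads1 and 0.15 for Mvd. The median of the LXR targets was -0.41, the value of Abca1, and that of all genes tested was -0.01. The 13 sterol enzymes had a median of 0.02 in that comparison.

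A wider set of 58 genes of the same pathways gave no call either. Of its 46 tested genes 24 had a higher and 22 a lower mean in Tshr-/-. Their median log2 fold change was 0.00, and limma called 0. Of these 46, the groups did not overlap for 1 gene higher (Ncoa6) and 1 gene lower (Apoe) in Tshr-/-, against 3.23% and 3.55% of all tested genes. In sterol synthesis and uptake the smallest p-values belonged to Tmem97 and Pmvk. Tmem97, a sterol-responsive membrane protein, had 9.45, 8.40 and 7.33 FPKM in Tshr-/- and 12.2, 11.9 and 7.63 FPKM in Tshr+/+. Pmvk, the kinase that follows Mvk, had 19.6, 19.2 and 15.5 FPKM in Tshr-/- and 22.8, 28.0 and 15.97 FPKM in Tshr+/+. Both overlapped through Tshr+/+ 3, with log2 fold changes of -0.28 ± 0.19 and -0.26 ± 0.21.

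In SREBP processing these were Rnf139, a ubiquitin ligase of the endoplasmic reticulum, and Mbtps1, the site-1 protease that cleaves SREBP. Their log2 fold changes were -0.24 ± 0.14 and 0.11 ± 0.16. In fatty acid synthesis, Acsl4, which activates arachidonate, had 8.14, 7.63 and 5.89 FPKM in Tshr-/- and 12.3, 13.8 and 6.17 FPKM in Tshr+/+. Tshr+/+ 3 alone overlapped the Tshr-/- range, and the log2 fold change was -0.46 ± 0.28. Tecr, the last enzyme of the elongation cycle, had a log2 fold change of -0.20 ± 0.14. In sterol storage, Soat1, which esterifies cholesterol, and Cyp27a1, which makes an oxysterol, had log2 fold changes of 0.29 ± 0.23 and -0.27 ± 0.29.

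Among LXR targets and partners, Apoe had the smallest p of the wider set. Apoe, the lipoprotein that receives cholesterol from macrophages, had 82.6, 99.7 and 106 FPKM in Tshr-/- and 179, 134 and 129 FPKM in Tshr+/+. The groups did not overlap, and the log2 fold change was -0.60 ± 0.17 (SE) with an adjusted p of 0.9997 by limma. Ncoa6, a coactivator of nuclear receptors, had 10.5, 10.2 and 10.4 FPKM in Tshr-/- and 9.43, 9.48 and 8.12 FPKM in Tshr+/+. Its groups did not overlap either, in the opposite direction, with a log2 fold change of 0.19 ± 0.10. Apoe is also abundant in resident macrophages, whose 10 markers summed to 160 to 259 FPKM in Tshr-/- and to 184 to 233 FPKM in Tshr+/+. Of the 10, 7 had a lower and 3 a higher mean in Tshr-/-. The median over the list was -0.11 on the log2 scale, and the fold changes ranged from -0.39 to 0.09. None of the 10 was called by limma. Their part in the Apoe values was not tested.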

How the data were processed

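RNA sequencing of 3 Tshr-/- and 3 Tshr+/+ libraries was analysed from the table of FPKM values for 54532 genes that the authors deposited, made on GRCm38 (mm10) per the submitters' processing notes. Aligner, counting tool and strand setting were not given in the sources used here. Columns headed HO were read as Tshr-/-. FPKM times gene length gave whole fragments in 100% of values within 0.01, so the depth is 14698126 to 17976477 fragments.

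log2(FPKM + 1) was compared with limma 3.58.1 in R 4.3.3 (variance trend, two-sided, Benjamini-Hochberg over the 10913 genes that reached 1 FPKM in 3 or more libraries, threshold 0.05), a scale that understates changes of low genes. The code was tested on simulated counts without the shifts that many genes of a library share. That test does not show how small a change could be called in these data. Library titles number the mice, so p-values measure the spread between libraries, each taken as a separate sample. Deviations of same-numbered libraries correlated at 0.243, 0.262 and 0.468, all over 0.1, so the number was taken as a pairing for an alternative fit; between different numbers the values lay between -0.485 and 0.344, the highest being Tshr-/- 1 with Tshr+/+ 2. No library looked like a copy of another, all pairs differing beyond sampling noise.

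Members, lists and naming rules were chosen with earlier results of these data known. Named with values in every library were, per role, the members with the smallest p in each direction and the most abundant, the receptors, targets and main regulators, and per wider list the 2 smallest p. Alternatives were another pseudocount, filter, scaling, weighting, voom on whole fragments, the block and left-out libraries.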

Additional observations from a re-analysis of the deposited data

How the results depend on the processing

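No member was called under any of the 17 alternatives, of which the one without both Tshr-/- 1 and 2 leaves a single Tshr-/- library, assumed to vary like the others, and can say little about stability. The count of genes called, 0 in the main comparison, was 24 with array weights and 24 without both libraries numbered 3 (chosen after the data were seen), and 0 to 2 with 1 library left out, the 2 arising without Tshr-/- 3. Array weights gave 3.82 to Tshr-/- 1 and 3.15 to Tshr+/+ 2. With the replicate number as a block, 0 genes were called and no call changed. The LXR target median moved to -0.41 without both libraries numbered 3, and its direction turned without Tshr+/+ 1 (0.0111) and without both Tshr-/- 1 and 2 (0.0928). Of 249 values of 15 named genes 231 kept their direction and 18 reversed, with none newly called. Leaving out 1 library gave log2 fold changes of -0.295 to 0.0116 for Abca1, -0.19 to 0.0335 for Abcg1, -0.0705 to 0.00242 for Acly, -0.0285 to 0.23 for Fads1, -0.56 to 0.0535 for Insig1, -0.0621 to 0.41 for Insig2 and -0.13 to 0.11 for Nr1h3. Without a turn of direction they ranged over -0.70 to -0.16 for Mylip, -0.46 to -0.07 for Nr1h2, -0.55 to -0.17 for Mvk, -0.28 to -0.016 for Srebf2 and 0.016 to 0.19 for Mvd. Without both Tshr-/- 1 and 2, which held Tshr fragments, they were 0.0928 for Abca1, 0.10 for Abcg1, 0.026 for Acly and 0.11 for Nr1h3, all turned, and -0.76 for Mylip, -0.63 for Mvk, -0.56 for Insig1 and -0.36 for Srebf2. Equal FPKM totals gave 0.013 for Acly and 0.012 for Nr1h3, and quantile normalization 0.023 for Acly. The cause was not tested. With 3 libraries a group the intervals of several members allow changes of over 1.5-fold, and the 6 members under the filter have no test.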
